A study of Homo sapiens with 4 samples.

Results

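The genes described here encode heterogeneous nuclear ribonucleoproteins (hnRNPs) and other RNA-binding proteins that regulate splicing. They were chosen by symbol from a list of 41 genes, and all 41 were found among the 40205 rows of the deposited table. HnRNPs coat nascent transcripts and many of them block splice sites or silence exons. SR proteins such as SRSF1 bind exonic sequences and favour exon inclusion, and HNRNPA1 is the best known opponent of SRSF1 at shared exons. The other regulators on the list bind short motifs near exons and either favour or repress them depending on position, and several control their own mRNA through exons that send it to nonsense-mediated decay.

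The samples were 2 lines derived from human glioblastoma, U87MG and U251, profiled by sequencing of polyadenylated RNA in 4 libraries. In each line SRSF1 knockdown cells, carrying the sh-SRSF1 hairpin and labelled KD, were set against control cells carrying the sh-NC hairpin and labelled WT. The controls are therefore infected cells and not untreated wild type. All cells received lentivirus at a multiplicity of infection of 20 and were made into stable lines with puromycin. Each line and arm gave 1 library, so differences seen inside one line are unreplicated and the lines are the only replicates of the knockdown.

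Libraries held 25099799 to 27953878 reads, as recovered from the values. The targeted gene stood at 14.6 RPKM (reads per kilobase of gene length, scaled to library size) in U87MG knockdown against 88.3 RPKM in U87MG control, and at 15.8 RPKM in U251 knockdown against 109 RPKM in U251 control. Of 9 glial and neural progenitor markers 2, S100B and AQP4, were under 1 RPKM in every library, while VIM was above 1000 RPKM in all of them. The astrocyte gene SLC1A3 was at 12.8 and 13.4 RPKM in U87MG knockdown and control and at 34.2 and 13.5 RPKM in U251 knockdown and control. GFAP was at 0.580 and 1.47 RPKM in U251 knockdown and control, and under 1 RPKM in U87MG. SOX2 was under 1 RPKM in U87MG but at 49.3 and 47.9 RPKM in U251 knockdown and control. NES was at 1.29 and 1.79 RPKM in U87MG knockdown and control and at 83.7 and 61.1 RPKM in U251 knockdown and control. All 3 blood and all 3 endothelial markers were under 1 RPKM. Of 4 neuronal markers only 1, RBFOX3, was under 1 RPKM in every library, and MAP2 reached 6.95 RPKM in U251 knockdown. Of 3 epithelial markers 2 were under 1 RPKM in every library, and KRT8 reached 5.74 RPKM in U251 knockdown. In bulk RNA such as this, fewer cells of a kind and less RNA per cell cannot be told apart.

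All 41 genes reached 1 RPKM in all 4 libraries, from 1.11 RPKM for CELF2 in U87MG control to 1393 RPKM for HNRNPA2B1 in U251 control. As a group they were lower in the knockdown libraries of both lines. Together they summed to 3570.4 RPKM in U87MG knockdown against 5009 RPKM in U87MG control, a ratio of 0.713. In U251 the sums were 4844 RPKM in knockdown and 5889 RPKM in control, a ratio of 0.823. HNRNPA2B1 alone supplied 20.8% to 23.6% of these sums.

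**Figure D1:**
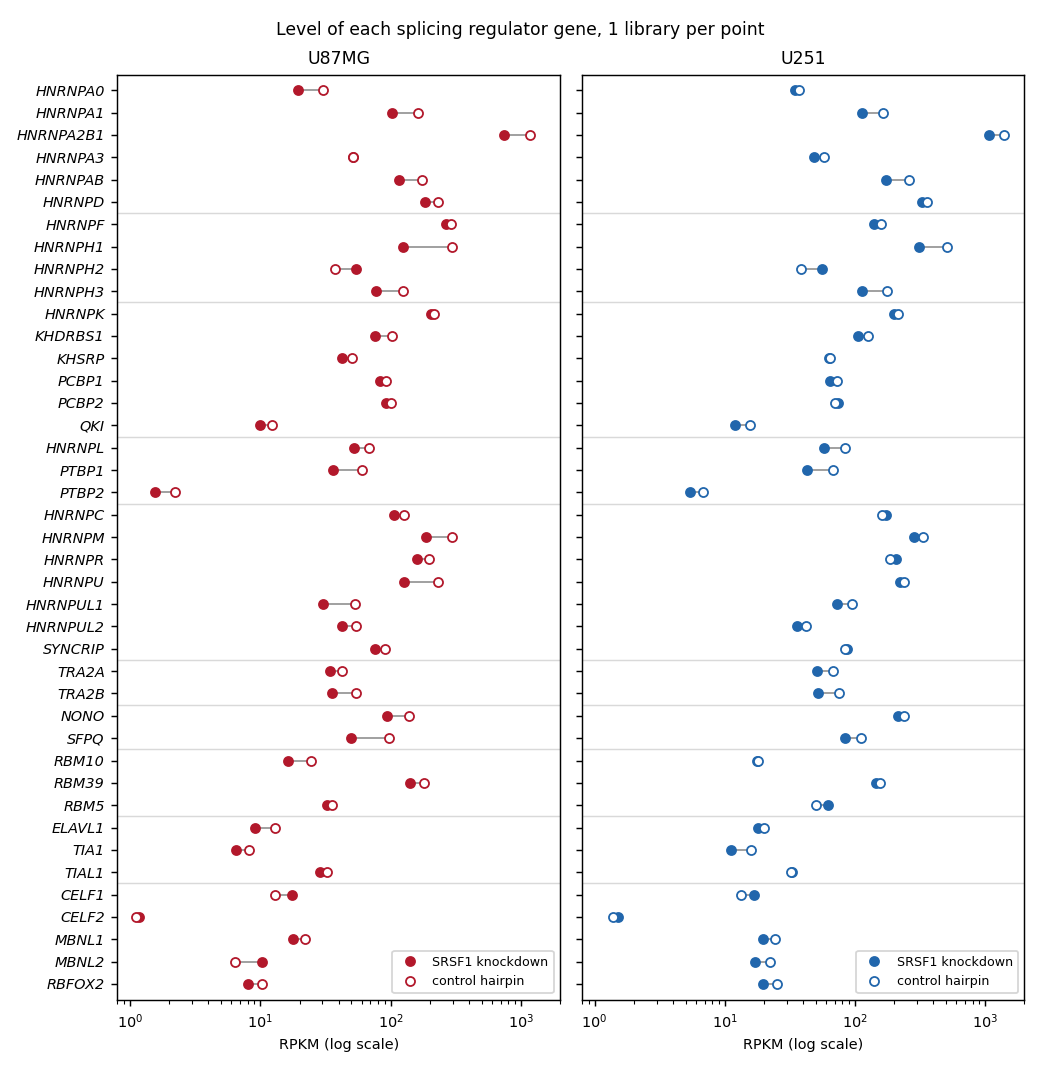
Level of each of the 41 genes in RPKM on a log axis, in U87MG (left) and U251 (right), with filled points for SRSF1 knockdown and open points for control, 1 library per point. Most filled points lie left of their open partner, and HNRNPH2 and CELF1 lie right of it in both lines.

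A ratio here is the log2 of knockdown over control after adding 1 RPKM to each, which understates differences of low genes. The median ratio of the 41 genes was -0.32 in U87MG and -0.22 in U251, against medians of -0.05 and -0.0037 over all 16098 genes tested. Among the 9314 tested genes with a mean of at least 5 RPKM, which are closer to these genes in level, the medians were -0.06 and 0.03. Of the 41 genes 30 were lower in both lines, where the share of all tested genes was 36.5%, and 3 were higher in both lines, where it was 29.3%. The remaining 8 lay on opposite sides in the lines. Of the 16098 genes tested, 5496 were neither lower in both lines nor higher in both.

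At 1.5-fold, 12 of the 41 were lower and 1 was higher in U87MG, against 11.5% and 7.68% of all genes tested. In U251 4 were lower and none was higher, against 7.73% and 5.01%. Both counts depend on the scaling. After trimmed-mean rescaling 6 were lower and 2 higher in U87MG, and 2 were lower in U251. After quantile normalization 9 were lower and 1 higher in U87MG, and 6 were lower in U251. The shares of all genes at these scalings are not given here. Without rescaling the same 4 genes, HNRNPH1, HNRNPH3, PTBP1 and HNRNPAB, were past 1.5-fold lower in both lines (3.76% of all genes). HNRNPAB was only narrowly past it, with ratios of -0.588 in U87MG and -0.589 in U251. Across the lines, limma with the cell line as a block called 1 of the 41 lower, HNRNPH1, and none higher at an adjusted p under 0.05 over all genes. The shares of all genes called were 2.61% lower and 1.16% higher. At an unadjusted p under 0.05 by limma, 11 were lower and 1 was higher, against 12.8% and 8.29% of all genes. The 11 were HNRNPH1, PTBP1, SFPQ, HNRNPH3, HNRNPA1, HNRNPUL1, HNRNPAB, TRA2B, HNRNPA2B1, HNRNPL and HNRNPM, and the 1 was HNRNPH2.

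**Figure D2:**
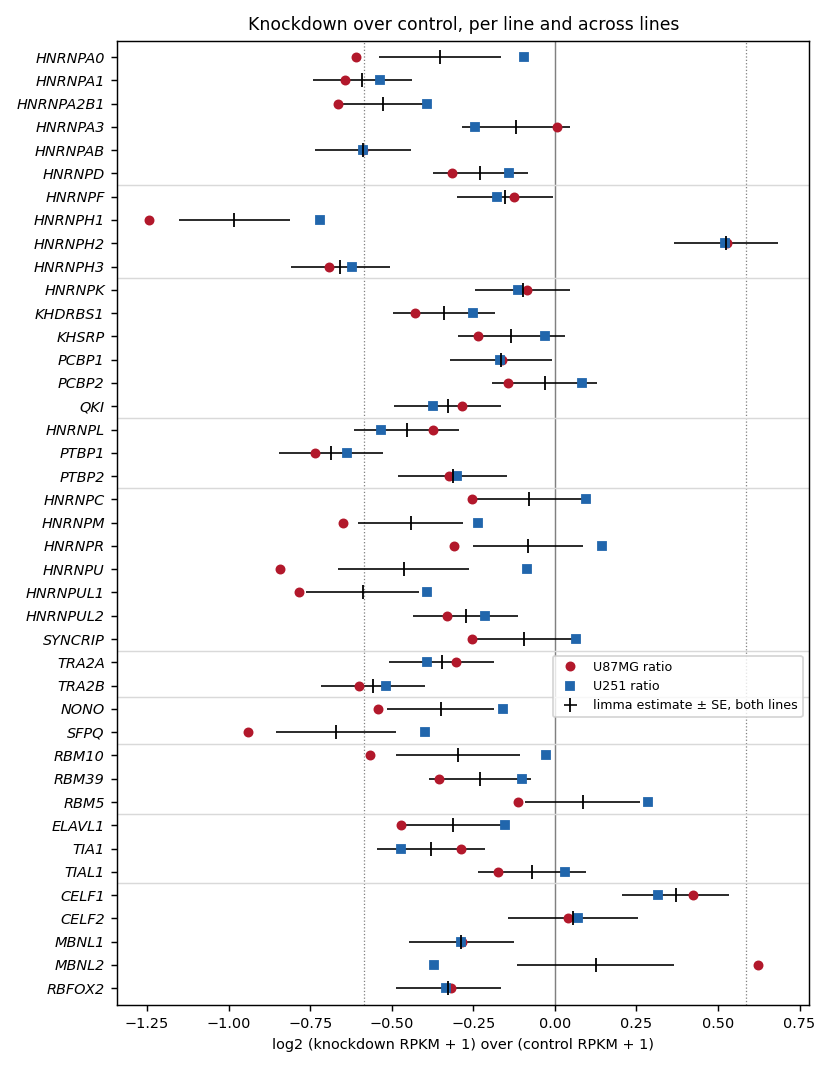
Log2 ratio of knockdown over control for each gene in U87MG (circles) and U251 (squares), with the limma estimate across lines and its SE (bars). Dotted lines mark 1.5-fold, and 4 genes have both points left of the lower one.

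The summed level of 10 proliferation markers was 245 RPKM in U87MG knockdown against 685 RPKM in U87MG control, and 584 RPKM in U251 knockdown against 1016 RPKM in U251 control. All 10 were lower in both lines, beside 36.5% of all genes tested, with median ratios of -1.36 and -0.83. Limma called 6 of the 10 lower, beside 2.61% of all genes tested. The part of the proliferation markers in the levels of the splicing regulators was not tested.

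The hnRNP F/H family, whose proteins bind runs of guanines, held both the lowest and the highest estimate among the 41 genes. HNRNPH1 fell and its close relative HNRNPH2 stood higher in both lines. On GRCh38 (GENCODE 29), HNRNPH1 spans chr5:179614178-179634784 on the reverse strand and HNRNPH2 spans chrX:101408295-101414133 on the forward strand. The 250 bases before a RefSeq start of each, on GRCh38.p14 and given 5′ to 3′ on the gene's strand, are shown because these close relatives lay on opposite sides of their controls. Capitals mark matches on either strand to the CCAAT box (CCAAT), the GC box (GGGCGG), the ETS core (CCGGAAG), the TATA box (TATAAA) and the E2F-type words TTTCCCGC and TTTGGCGC. The HNRNPH1 window lies at chr5:179623672-179623921 on the reverse strand, and the HNRNPH2 window at chrX:101407972-101408221 on the forward strand.
HNRNPH1: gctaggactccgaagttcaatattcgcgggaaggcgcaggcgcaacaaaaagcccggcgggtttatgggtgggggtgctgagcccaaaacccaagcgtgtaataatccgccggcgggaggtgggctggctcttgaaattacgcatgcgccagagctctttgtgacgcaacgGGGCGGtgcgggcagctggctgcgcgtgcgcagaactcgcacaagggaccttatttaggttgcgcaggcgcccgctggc
HNRNPH2: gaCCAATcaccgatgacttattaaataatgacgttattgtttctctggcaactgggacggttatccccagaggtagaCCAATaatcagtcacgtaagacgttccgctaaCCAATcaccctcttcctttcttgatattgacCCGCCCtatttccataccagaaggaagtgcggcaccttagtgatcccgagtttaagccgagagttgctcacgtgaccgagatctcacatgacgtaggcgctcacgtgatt
The HNRNPH1 window, the one of 4 listed starts that most coding transcripts of GENCODE 29 use (9 of 26 begin within 50 bases), held 1 GC box and had 62% G and C. The only HNRNPH2 window, within 50 bases of which no GENCODE 29 coding transcript begins, held 3 CCAAT boxes and 1 GC box, with 47.6% G and C. A match is only a description of the letters. Over the 62 listed starts of the 34 genes with an entry, a CCAAT box was present in 43.5%, against 32.0% of 35116 listed starts of all genes. A GC box was present in 61.3% against 42.6%, an ETS core in 9.68% against 8.52%, and a TATA box in 8.06% against 10.7%. The word TTTCCCGC was present in 4.84% against 1.39%, and TTTGGCGC in none of the 62 against 0.55%.

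HNRNPH1 stood at 125 RPKM in U87MG knockdown against 297 RPKM in U87MG control. In U251 it was at 310.0 RPKM in knockdown against 512 RPKM in control. Both knockdown libraries thus lay below the control of their own line, although the U251 knockdown was above the U87MG control. Recovered reads gave a knockdown over control ratio of 0.420 in U87MG, with a 95% exact interval of 0.409 to 0.432. In U251 that ratio was 0.606, with an interval of 0.595 to 0.617, and both intervals reflect counting error alone. Across lines limma gave -0.98 ± 0.17 (SE, 2 libraries per arm, adjusted p = 0.0286). The call is lost under 4 of 7 alternatives, with an adjusted p of 0.067 after trimmed-mean rescaling, and adjusted p ranged from 0.00274 to 1.0 over all of them.

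HNRNPH2 was at 53.9 RPKM in U87MG knockdown against 37.1 RPKM in control, and at 56.0 RPKM in U251 knockdown against 38.7 RPKM in control. Its knockdown libraries were both above both controls. The ratios of 0.53 and 0.52 were nearly equal, with read ratios of 1.45 in each line (95% exact intervals 1.35 to 1.57 in U87MG and 1.34 to 1.56 in U251). The estimate of 0.52 ± 0.16 did not pass the threshold (adjusted p = 0.118 by limma, lowest 0.0554 under an alternative). Counted in 31-base words of its longest coding transcript, 0.201 of HNRNPH2 is also found in other genes, with HNRNPH1 the most frequent of them. For HNRNPH1 that share was 0.0496.

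HNRNPH1 made up 69.8% of the summed RPKM of the HNRNPH1 and HNRNPH2 pair in U87MG knockdown, against 88.9% in U87MG control. The shares were 84.7% in U251 knockdown and 93.0% in U251 control. HNRNPH3, the shortest family member, was at 76.7 RPKM in U87MG knockdown against 124 RPKM in control, and at 114 RPKM in U251 knockdown against 176 RPKM in control. Its ratios of -0.69 and -0.62 came to -0.66 ± 0.15 by limma (adjusted p = 0.0602). HNRNPF had ratios of -0.13 and -0.18, with 266 and 291 RPKM in U87MG knockdown and control and 139 and 157 RPKM in U251 knockdown and control. The family thus spanned ratios from -1.24 to 0.53 in U87MG and from -0.72 to 0.52 in U251.

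The hnRNP A/B group, which includes the classical exon silencers, was lower in 5 of 6 genes in both lines, and none was called by limma. Of all genes tested, 36.5% were lower in both lines and 2.61% were called lower. HNRNPA2B1, the most abundant of the 41, was at 744 RPKM in U87MG knockdown against 1179.6 RPKM in control. In U251 it was at 1062 RPKM in knockdown against 1393 RPKM in control. Its estimate was -0.53 ± 0.13 (adjusted p = 0.075 by limma). HNRNPAB, a regulator of transcription and RNA transport, had the same ratio of -0.59 in both lines, from 116 against 174 RPKM in U87MG knockdown and control and 173 against 261 RPKM in U251 knockdown and control (-0.59 ± 0.15, adjusted p = 0.0739 by limma).

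HNRNPA1 was at 103 RPKM in U87MG knockdown against 161 RPKM in control, and at 113 RPKM in U251 knockdown against 164 RPKM in control. Both knockdown values were below both controls, with an estimate of -0.59 ± 0.15 (adjusted p = 0.0795 by limma). Its value is uncertain, since 0.301 of its 31-base words are also found elsewhere. The copy HNRNPA1P48 has higher values than the gene itself, with 272 RPKM in U87MG knockdown against 436 RPKM in control and 238 RPKM in U251 knockdown against 345 RPKM in control. The copy HNRNPA3P6 reached 397 RPKM, above HNRNPA3, and HNRNPKP4 reached 147 RPKM, below HNRNPK. HNRNPA3 itself was at 51.7 and 51.5 RPKM in U87MG knockdown and control and at 48.3 and 57.4 RPKM in U251 knockdown and control.

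HNRNPD, known as AUF1 for its binding to AU-rich mRNA, was at 184 and 230.0 RPKM in U87MG knockdown and control and at 325 and 359 RPKM in U251 knockdown and control, with ratios of -0.32 and -0.14. HNRNPA0, encoded without introns in its longest coding transcript, was at 19.6 and 30.5 RPKM in U87MG knockdown and control and at 34.6 and 37.0 RPKM in U251 knockdown and control, with ratios of -0.61 and -0.10. Over the 41 genes, 11 had a share of at least 0.1 of their words in another gene, and 11 had none.

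PTBP1, the polypyrimidine tract-binding protein that represses neuronal exons, was at 36.1 RPKM in U87MG knockdown against 60.7 RPKM in control. In U251 it stood at 43.1 RPKM in knockdown against 67.7 RPKM in control. Its ratios were -0.73 and -0.64, and limma gave -0.69 ± 0.16 (adjusted p = 0.0613). Both knockdown libraries were below both controls. PTBP2 is the neuronal paralog, and PTBP1 is known to repress it through exon skipping and decay. It was at 1.56 and 2.20 RPKM in U87MG knockdown and control and at 5.38 and 6.86 RPKM in U251 knockdown and control, with ratios of -0.33 and -0.30. PTBP2 was thus not higher in either knockdown library, although its U87MG values rest on 141 and 202 reads. PTBP1 held 95.9% of the pair's RPKM in U87MG knockdown against 96.5% in control, and 88.9% in U251 knockdown against 90.8% in control. HNRNPL, which binds CA repeats, had ratios of -0.37 and -0.53. Its words were shared with other genes at 0.395.

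Among the other hnRNP genes, all 7 were lower in U87MG and 4 in U251. Of the 16098 genes tested, 8927 were lower in U87MG and 8127 in U251. HNRNPU, a nuclear scaffold protein that binds chromatin and RNA, was at 128 RPKM in U87MG knockdown against 230.2 RPKM in control. In U251 the difference was small, with 223 RPKM in knockdown against 237 RPKM in control. HNRNPUL1, a relative with a role in DNA repair, was at 30.5 and 53.3 RPKM in U87MG knockdown and control and at 72.4 and 95.4 RPKM in U251 knockdown and control (-0.59 ± 0.17, adjusted p = 0.109 by limma). HNRNPUL2 was at 42.7 and 53.9 RPKM in U87MG knockdown and control and at 36.2 and 42.2 RPKM in U251 knockdown and control. Its words were shared with other genes at 0.454, the highest share on the list, while HNRNPUL1 shared none. HNRNPUL1 made up 41.7% of the RPKM of HNRNPUL1 and HNRNPUL2 in U87MG knockdown against 49.7% in control, and 66.7% in U251 knockdown against 69.3% in control. HNRNPM had ratios of -0.65 and -0.24. HNRNPC, which binds uridine tracts, was at 107 and 128 RPKM in U87MG knockdown and control and at 174 and 162 RPKM in U251 knockdown and control. HNRNPR was at 158 and 196 RPKM in U87MG knockdown and control and at 207 and 187 RPKM in U251 knockdown and control. SYNCRIP, also called hnRNP Q, was at 76.1 and 91.0 RPKM in U87MG knockdown and control and at 87.3 and 83.4 RPKM in U251 knockdown and control. HNRNPC, HNRNPR and SYNCRIP all lay below control in U87MG and above it in U251.

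The paraspeckle proteins SFPQ and NONO act as a dimer in splicing and transcription. SFPQ was at 49.99 RPKM in U87MG knockdown against 96.9 RPKM in control, and at 84.3 RPKM in U251 knockdown against 111 RPKM in control. Its ratio of -0.94 in U87MG was the second lowest of the 41, and the estimate was -0.67 ± 0.18 (adjusted p = 0.0925 by limma). NONO was at 94.1 and 137 RPKM in U87MG knockdown and control and at 215 and 240.0 RPKM in U251 knockdown and control. The SFPQ share of the pair was 34.7% in U87MG knockdown against 41.4% in control, and 28.2% in U251 knockdown against 31.7% in control.

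TRA2A and TRA2B are SR-like activators of exons rich in purines, and both were lower in both lines. TRA2B was at 35.2 RPKM in U87MG knockdown against 53.9 RPKM in control, and at 52.4 RPKM in U251 knockdown against 75.4 RPKM in control. Both knockdown values were below both controls, and limma gave -0.56 ± 0.16 (adjusted p = 0.102). TRA2A was at 34.4 and 42.6 RPKM in U87MG knockdown and control and at 51.3 and 67.6 RPKM in U251 knockdown and control, with ratios of -0.30 and -0.39. TRA2A held 49.4% of the pair's RPKM in U87MG knockdown against 44.2% in control, and 49.5% in U251 knockdown against 47.3% in control.

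Of the 6 genes for proteins with K homology domains, 5 were lower in both lines, beside 36.5% of all genes tested. The median ratios of the 6 were -0.20 in U87MG and -0.14 in U251. Their ratios lay between -0.43 and 0.08, and none passed 1.5-fold in a line. HNRNPK, a binder of cytosine-rich RNA, was at 204 and 217 RPKM in U87MG knockdown and control and at 199 and 215 RPKM in U251 knockdown and control. Its words were shared with other genes at 0.309. Its relative PCBP1 was at 82.5 and 92.4 RPKM in U87MG knockdown and control and at 64.3 and 72.4 RPKM in U251 knockdown and control. PCBP2 was at 91.6 and 101 RPKM in U87MG knockdown and control and at 74.0 and 69.8 RPKM in U251 knockdown and control, so that it lay on opposite sides of its controls. KHDRBS1, known as Sam68, had -0.43 and -0.25, and QKI, a glial regulator of splicing and mRNA stability, had -0.28 and -0.37. KHSRP, which promotes decay of AU-rich mRNA, had -0.24 and -0.03.

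The tissue-type regulators had mixed directions, with 2 of 5 lower and 2 higher in both lines, beside 36.5% and 29.3% of all genes. RBFOX2 and MBNL1, which control exons switched during differentiation, had ratios between -0.28 and -0.33 in both lines. MBNL1 was at 18.0 and 22.1 RPKM in U87MG knockdown and control and at 19.8 and 24.4 RPKM in U251 knockdown and control. CELF1, which opposes MBNL proteins at many exons, was at 17.6 RPKM in U87MG knockdown against 12.9 RPKM in control, and at 16.8 RPKM in U251 knockdown against 13.2 RPKM in control. Its knockdown libraries were both above both controls, and the estimate of 0.37 ± 0.16 did not pass the threshold (adjusted p = 0.246 by limma). CELF2 was at 1.17 and 1.11 RPKM in U87MG knockdown and control and at 1.51 and 1.39 RPKM in U251 knockdown and control, with read ratios whose 95% exact intervals span 1 in both lines. MBNL2 was at 10.3 RPKM in U87MG knockdown against 6.37 RPKM in control, but at 17.0 RPKM in U251 knockdown against 22.3 RPKM in control. The MBNL1 share of MBNL1 and MBNL2 was therefore 63.5% in U87MG knockdown against 77.6% in control, and 53.9% in U251 knockdown against 52.3% in control.

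**Figure D3:**
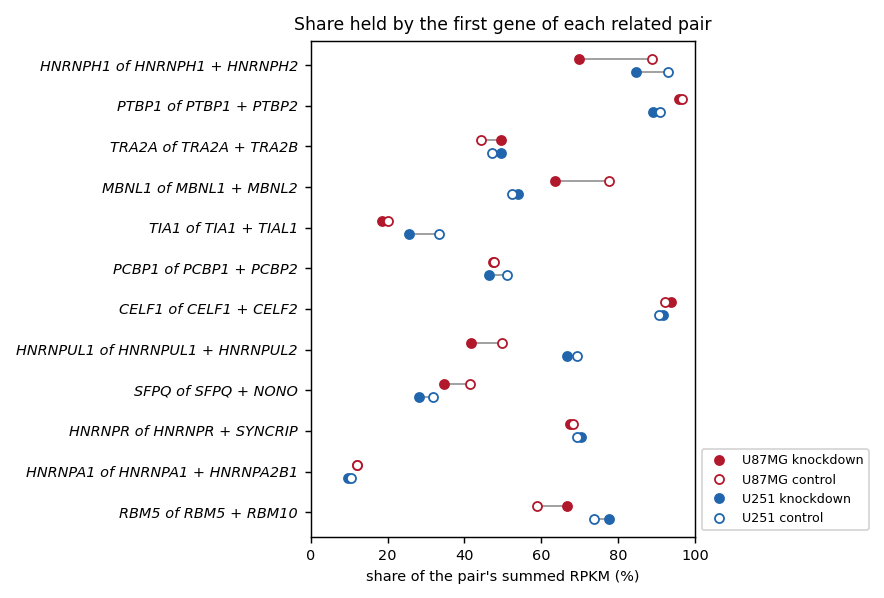
Share of a related pair's summed RPKM held by its first gene, in percent, with filled points for knockdown and open points for control. The HNRNPH1 share is lower in knockdown in both lines, while the MBNL1 share is lower in knockdown in U87MG and slightly higher in U251.

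ELAVL1, known as HuR and a stabiliser of U-rich mRNA, was at 9.05 and 12.9 RPKM in U87MG knockdown and control and at 17.9 and 20.0 RPKM in U251 knockdown and control. TIA1, which helps U1 recognise weak splice sites, was at 6.53 and 8.19 RPKM in U87MG knockdown and control and at 11.2 and 15.95 RPKM in U251 knockdown and control. Its paralog TIAL1 was at 28.7 and 32.5 RPKM in U87MG knockdown and control and at 32.7 and 32.0 RPKM in U251 knockdown and control. TIA1 made up 18.5% of the pair's RPKM in U87MG knockdown against 20.1% in control, and 25.5% in U251 knockdown against 33.2% in control. RBM10, a splicing repressor mutated in lung cancer, was at 16.3 and 24.6 RPKM in U87MG knockdown and control and at 17.8 and 18.1 RPKM in U251 knockdown and control. Its paralog RBM5 was at 32.5 and 35.3 RPKM in U87MG knockdown and control and at 61.7 and 50.5 RPKM in U251 knockdown and control. RBM5 held 66.6% of the RPKM of RBM5 and RBM10 in U87MG knockdown against 58.9% in control, and 77.6% in U251 knockdown against 73.6% in control. RBM39, a partner of the U2 auxiliary factor, had -0.36 and -0.10.

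Ratios were lower in U87MG than in U251 for 27 of the 41 genes, as they were for 9197 of the 16098 genes tested. Across the 41 genes the ratios of the lines had Pearson r = 0.60 and Spearman rho = 0.58, against 0.48 and 0.49 across all genes. These are descriptions across genes, which share the same libraries and are not replicates.

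**Figure D4:**
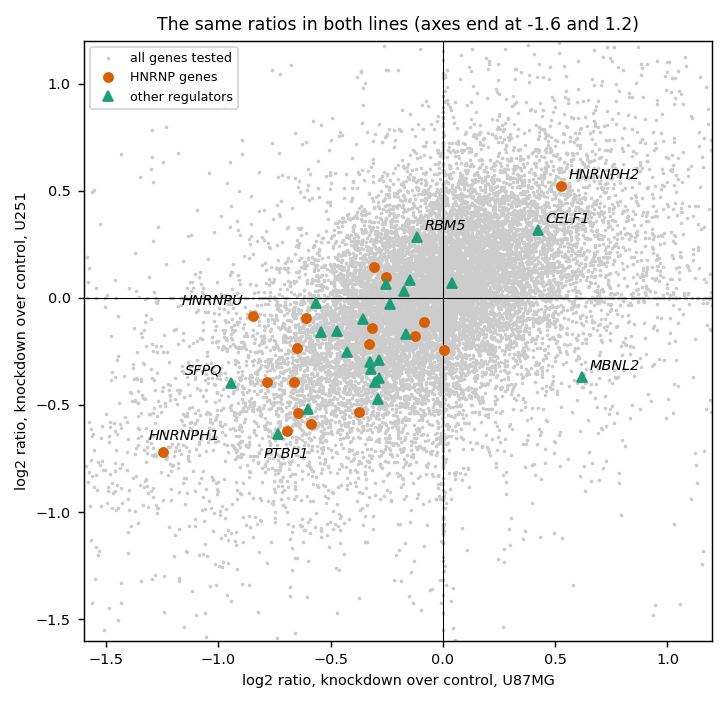
Log2 ratio of knockdown over control in U87MG (x axis) and U251 (y axis) for HNRNP genes (circles), the other regulators (triangles) and all genes tested (grey dots, cropped at the axis ends). Of the 41 genes 30 lie in the lower left, and MBNL2 lies alone in the lower right well away from both axes.

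Of 65 other splicing regulators outside the list 51 were tested, and 33 of these were lower in both lines, beside 36.5% of all genes, with median ratios of -0.28 in U87MG and -0.11 in U251. None of the 51 was called by limma, beside 2.61% of all genes called lower and 1.16% higher. At an unadjusted p under 0.05 by limma, 8 of the 51 were lower and 2 higher. The shares of all genes were 12.8% and 8.29%. Among the 51, SRRM1, a coactivator with SR repeats, was at 15.5 and 29.4 RPKM in U87MG knockdown and control. In U251 knockdown and control it was at 39.3 and 56.2 RPKM (adjusted p = 0.0747 by limma). RBM14 had ratios of -0.84 and -0.53. Of 10 tested SR genes other than SRSF1, 5 were lower in both lines and 1, SRSF2, was called lower. The shares of all genes were 36.5% and 2.61%.

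The annotation of the 41 genes was examined for what they share beyond their role. In GENCODE 29, 23 of them (56.1%) have a transcript annotated as a target of nonsense-mediated decay, against 43.5% of 11230 tested protein-coding genes. The median ratios of the 23 were -0.32 in U87MG and -0.37 in U251, while the 18 genes without such a transcript had medians of -0.32 and -0.17. Tested protein-coding genes had medians of -0.09 and -0.02 with such a transcript, and of -0.04 and -0.0024 without. HNRNPH2 and HNRNPH3 are among the 18 without, and HNRNPH1, with 4 such transcripts, among the 23 with. Gene-level RPKM does not separate isoforms, so the decay transcripts themselves were not analysed here.

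For 7 of the genes, a coding gene on the opposite strand starts within 1000 bases of the gene's own start. HNRNPA2B1 and CBX3, encoding heterochromatin protein HP1 gamma, have annotated extents that overlap at their starts. So do RBM10 with NDUFB11, and CELF1 with NDUFS3 and PTPMT1. The 250 bases before a RefSeq start of HNRNPA2B1, at chr7:26200747-26200996 on the reverse strand of GRCh38.p14, are shown with their 1 CCAAT box, read on the opposite strand, in capitals.
HNRNPA2B1: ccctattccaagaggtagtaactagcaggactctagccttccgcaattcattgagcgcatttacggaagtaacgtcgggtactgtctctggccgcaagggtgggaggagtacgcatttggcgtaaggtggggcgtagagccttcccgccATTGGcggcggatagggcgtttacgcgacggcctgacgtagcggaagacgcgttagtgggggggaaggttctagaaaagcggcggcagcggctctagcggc
CBX3 was at 66.2 RPKM in U87MG knockdown against 105 RPKM in control, and at 85.3 RPKM in U251 knockdown against 137 RPKM in control. Its ratios of -0.65 and -0.67 stood beside -0.66 and -0.39 for HNRNPA2B1. CBX5, which starts 60 bases from HNRNPA1, had ratios of 0.36 and -0.19 beside -0.64 and -0.54 for HNRNPA1. RMI1, beside HNRNPK, had -0.86 and -0.48 where HNRNPK had -0.09 and -0.11. NDUFB11 had -0.55 and -0.09 beside -0.57 and -0.03 for RBM10. NDUFS3 had -0.06 and 0.26, and PTPMT1 had 0.23 and 0.40, beside 0.42 and 0.32 for CELF1. Of the 8 coding neighbours, 4 lay on the same side of 0 as their partner in both lines, and none was called by limma. CBX3 and RMI1 had an unadjusted p under 0.05 by limma. Because the strand setting of the counting is not given in the sources used here, reads of overlapping neighbours cannot be told apart.

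The last comparison was between the lines, with both arms together. Of the 41 genes, limma called 17 lower and 1 higher in U87MG than in U251 (adjusted p under 0.05), against 27.0% and 21.6% of all genes tested. The median difference was -0.38 (log2), against -0.07 over all genes. PTBP2 differed most, with the levels given above, by a difference of -1.31 ± 0.17 (adjusted p = 0.000587 by limma). RBFOX2 was at 7.99 RPKM in U87MG knockdown and 10.2 RPKM in U87MG control, against 19.6 RPKM in U251 knockdown and 25.0 RPKM in U251 control (-1.21 ± 0.16). MBNL2 (-1.16 ± 0.24), HNRNPH1 (-1.04 ± 0.17), HNRNPUL1 (-1.02 ± 0.17) and NONO (-0.99 ± 0.16) followed. The MBNL2 difference was -0.67 between the knockdown libraries and -1.66 between the control libraries, so its size and place in this order depend on the arm. Unlike MBNL2, HNRNPA0 (-0.79 and -0.27), HNRNPC (-0.69 and -0.34) and HNRNPA2B1 (-0.51 and -0.24) differed more between the knockdown than between the control libraries. So did HNRNPH1 (-1.30 and -0.78), HNRNPUL1 (-1.22 and -0.83), NONO (-1.18 and -0.80) and RBM5 (-0.90 and -0.50), among others. TIA1 (-0.70 and -0.88) and TRA2A (-0.56 and -0.65) differed more between the control libraries, as MBNL2 did. These contrasts between the arms were not tested. HNRNPF was the 1 gene called higher, with both U87MG libraries above both U251 libraries (0.91 ± 0.15, adjusted p = 0.0018 by limma). HNRNPK (0.02), CELF1 (0.01) and HNRNPH2 (-0.06) were close to 0.

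**Figure D5:**
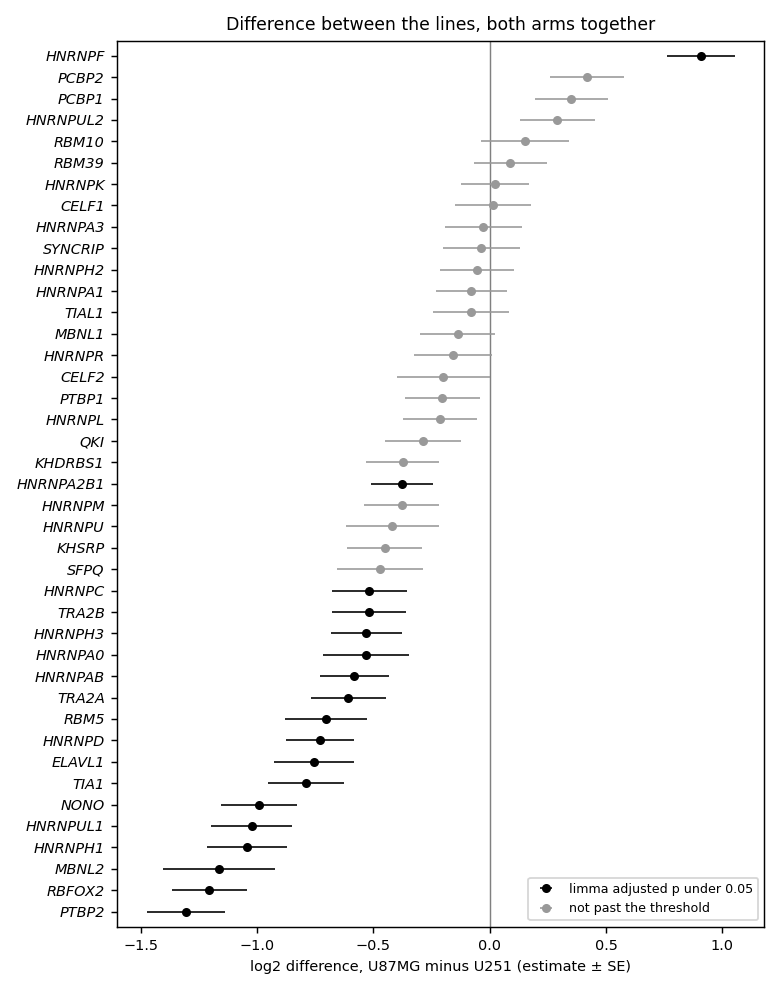
Difference of each gene between the lines, U87MG minus U251 in log2 units, as the limma estimate with its SE. Black points have an adjusted p under 0.05, of which 17 lie left of 0 and HNRNPF lies right of it.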

How the data were processed

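RNA-seq of 4 libraries was analysed, 1 for each combination of U87MG or U251 and hairpin. The authors deposited RPKM values per gene, scaled by gene length and library size. Bowtie 0.12.2 and the build hg19 are named in the submitters' processing notes. The sources used here do not name a counting program, an annotation or a strand setting. Whole reads were recovered from the steps in the RPKM values, with library totals from small RNA genes of known length. All 41 genes came out whole within 0.01 reads in every library, with 141 to 129407 reads, and 0 of 41 after random factors. The shortest gene length giving whole reads was kept. If all counts of a gene share a factor, its recovered reads are too few and its interval too wide. The random factors cannot show this. HNRNPH2 had the shortest recovered length of the 41, at 1196 bases. Intervals are 95% Clopper-Pearson.

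Genes with at least 1 RPKM in at least 1 library entered limma 3.58.1 in R 4.3.3 on log2(RPKM + 1), with the cell line as a block, an intensity trend in eBayes, two-sided tests and Benjamini-Hochberg adjustment over 16098 genes. The pairing is by cell line, from the labels. The fit leaves 1 residual degree of freedom per gene. The variance that eBayes drew from all tested genes counted as 6.74 degrees of freedom. Each SE therefore rests more on the other genes than on the gene itself. Whether the libraries derive from separate infections is not stated. A p-value covers no more than the spread among these libraries over all tested genes, which may be technical. Alternatives changed the pseudocount, filter, scaling, block, trend and fold.

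The gene list, the other lists and the pairs were chosen with earlier results of these data known. Values per library are given for genes called by limma, genes past 1.5-fold the same way in both lines, both genes of the fixed pairs and the 3 most abundant genes. Some others were added after their values were seen. Positions are from GENCODE 29 on GRCh38, promoter sequences from RefSeq on GRCh38.p14, and none were converted from hg19. A 31-base word counted as shared when it occurred in a transcript of another gene.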

Additional observations from a re-analysis of the deposited data

Results flagged for a closer look

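Of the 16098 genes tested, 5496 were neither lower in both lines nor higher in both, beside 8 of the 41 described here. The 8 genes here had knockdown levels above control in one of the cell lines and below it in the other. That contrast was not tested, since single libraries leave no residual degree of freedom for it. MBNL2 had a log2 ratio of 0.62 in U87MG and -0.37 in U251. Its 95% exact counting intervals lay on opposite sides of 1 (1.48 to 1.77 and 0.721 to 0.807). Those of RBM5, HNRNPR, HNRNPC, SYNCRIP and PCBP2 also lay on opposite sides of 1. RBM5 had ratios of -0.11 and 0.28. HNRNPR had -0.31 and 0.14, HNRNPC -0.25 and 0.10, and SYNCRIP -0.25 and 0.0644. PCBP2 had -0.15 and 0.0834 and TIAL1 -0.17 and 0.0312. HNRNPA3 had 0.0056 in U87MG and -0.24 in U251. The counting interval spanned 1 for TIAL1 in U251 (0.975 to 1.07) and for HNRNPA3 in U87MG (0.973 to 1.04). The direction of these genes in those lines is therefore open.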

How the results depend on the processing

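The counts of calls depended on the settings, and the cause was not tested. The 41 genes had 1 called lower in knockdown. That count was 0 with no filter, 0 after trimmed-mean rescaling, 0 without the cell line as a block (no replicate block), 0 without the intensity trend, 5 after quantile normalization and 8 when 1 RPKM was required in every library. The 5 were HNRNPA1, HNRNPAB, HNRNPH1, HNRNPH3 and PTBP1, and the 8 added HNRNPUL1, TRA2B and SFPQ. None was called higher under any of these settings. Without the block, which pairs the libraries by cell line, 0 genes of the list had an unadjusted p under 0.05 by limma. Over the 16098 genes tested 420 were called lower and 186 higher. Over the same genes these became 0 and 0 without the block, 31 and 30 after trimmed-mean rescaling and 172 and 88 without the trend. They became 513 and 315 after quantile normalization. With no filter they were 0 and 0 of 27973 genes, and with the stricter filter 877 and 442 of 12216 genes. At 1.5-fold the trimmed-mean rescaling gave 6 lower and 2 higher in U87MG and 2 lower in U251. Quantile normalization gave 9 lower and 1 higher in U87MG and 6 lower in U251. At 2-fold 1 was lower and 0 higher in U87MG, and 0 lower in U251. The shares of all genes for these rescaled and 2-fold counts are not given here. Between the lines, 5 genes of the list were called lower in U87MG with no filter, with 2430 lower and 1856 higher over all genes. After trimmed-mean rescaling 2 of the list were called higher there. The median ratios ranged from -0.34 to -0.23 in U87MG and from -0.25 to -0.17 in U251. Estimates near 0 changed sign in a few cases. PCBP2 in knockdown became 0.0407 after rescaling. Between the lines HNRNPA3 became 0.0392, HNRNPH2 0.0105 and SYNCRIP 0.0312 after rescaling, and HNRNPK became -0.23 and RBM39 -0.0779 after quantile normalization. Leaving out a library leaves no residual degree of freedom with the cell line in the model, so only the ratio of the other line remains or, between the lines, the difference within the other arm. Those values are given above for the genes called between the lines whose difference moved by over 1.5 times. Some genes not called between the lines also moved by that much. HNRNPU, for example, had -0.80 between the knockdown and -0.04 between the control libraries.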
